A study of Mus musculus with 14 samples.

Results

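The tricarboxylic acid cycle was followed here through 9 mouse genes that encode its enzymes or their subunits: Cs, Idh3a, Idh3b, Idh3g, Dlst, Suclg1, Sdhb, Fh1 and Mdh2. They were 9 of the 18193 genes that the arrays measured through a probe set carrying a single gene symbol. They had been listed as cycle genes, with earlier results of these data known, and each was read from its brightest such probe set over all 14 arrays. Names and probe sets were Cs (1450667_a_at), Idh3a (1432016_a_at), Idh3b (1418886_s_at), Idh3g (1416788_a_at), Dlst (1423710_at), Suclg1 (1415891_at), Sdhb (1418005_at), Fh1 (1424828_a_at) and Mdh2 (1433984_a_at).

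The cells were 3T3-L1, an established mouse line of preadipocytes that forms fat cells in culture when given a hormonal medium. All of them carried a lentivirus. In control cells it encoded a scrambled sequence, and in knockdown cells an siRNA sequence against TP53INP2, a protein known from autophagy and from the coactivation of nuclear receptors. Day 0 was confluent cells just before the differentiation medium (3 control and 3 knockdown arrays), and day 7 was cells after 7 days in it (4 and 4 arrays). The labels number the replicates without saying that they were separate cultures or transductions, so the p-values reflect how far these samples varied, and part of that variation may be technical. The RNA was from whole cultures, in which fewer cells of a type and less RNA per cell cannot be told apart.

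The cycle runs in the mitochondrial matrix, where it oxidises acetyl groups to CO2 and hands the electrons to NAD and ubiquinone for the respiratory chain. In fat cells its citrate is also exported to the cytosol and supplies acetyl groups for fatty acid synthesis. Mitochondria are known to become more abundant as 3T3-L1 cells differentiate.

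The labels were checked on Trp53inp2 itself, which fell by 1.17 ± 0.15 (log2 difference ± SE) at day 0 (adjusted p = 0.00205) and by 1.57 ± 0.13 at day 7 (adjusted p = 0.000111), with no overlap between groups on either day. All adjusted p-values are from limma's moderated test with Benjamini-Hochberg adjustment over 18193 genes, and a gene was called at an adjusted p under 0.05. Array medians lay between 5.44 and 5.57 (log2). Replicates 1 and 2 stood closer to each other than to the other arrays of their group: among brighter genes the SD of their difference was 0.0968 (controls) and 0.132 (knockdown cells) at day 7, against 0.24 to 0.476 for the other day 7 pairs. With replicates 1 and 2 averaged into 1 sample, the day 0 change of Trp53inp2 no longer passed (adjusted p = 0.165, and 0.145 with arrays also paired by number). With the mean over its probe sets in place of the brightest, Trp53inp2 fell by 0.67 at day 7 (adjusted p = 0.011), and its day 0 difference of -0.48 did not pass (adjusted p = 0.105). For members, and for named genes of neighbouring steps and regulators called at day 7, calls are given with and without averaging replicates 1 and 2. Values of cell markers, of single probe sets and of genes picked by correlation are given without it only.

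Promoter sequences are shown as a description, and their part in the levels of the 9 genes was not tested. RefSeq promoters (GRCm38.p6, 250 bases before to 50 after the start) were at hand for Cs, Idh3b, Idh3g, Dlst, Suclg1, Sdhb, Fh1 and Mdh2, which is 8 of the 9. Of 7 motifs searched on both strands, the ETS core CCGGAAG, which GABP, a regulator of nuclear genes for mitochondrial proteins, is known to bind, was in 4 of these 8 and in 8.86% of all 32851 promoters of that length. The 4 that hold it are printed 5′ to 3′ from 120 bases before to 20 after the start, with CCGGAAG or its reverse complement in capitals.
Idh3b, chr2:130284432-130284571, minus strand: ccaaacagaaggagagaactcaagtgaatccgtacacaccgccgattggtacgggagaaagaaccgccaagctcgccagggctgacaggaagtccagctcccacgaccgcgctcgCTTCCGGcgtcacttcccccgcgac
Idh3g, chrX:73786878-73787017, minus strand: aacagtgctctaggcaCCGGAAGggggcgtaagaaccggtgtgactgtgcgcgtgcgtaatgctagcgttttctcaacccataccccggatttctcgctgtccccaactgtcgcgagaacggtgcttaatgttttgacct
Dlst, chr12:85110713-85110852, plus strand: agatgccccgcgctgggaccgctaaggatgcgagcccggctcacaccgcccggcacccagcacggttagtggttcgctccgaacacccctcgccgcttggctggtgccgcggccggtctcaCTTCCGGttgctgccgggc
Sdhb, chr4:140961151-140961290, plus strand: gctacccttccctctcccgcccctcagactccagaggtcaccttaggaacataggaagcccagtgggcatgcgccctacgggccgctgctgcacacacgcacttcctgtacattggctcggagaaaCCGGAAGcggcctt
The match lies close to the start in Idh3b, Dlst and Sdhb and 104 bases before it in Idh3g. CCAAT was in 4 of the 8 promoters (37.4% of all), GGGCGG in 5 (35.7%) and TGACGTCA in 1, that of Mdh2 (1.79%). TCAAGGTCA, the element of the oestrogen-related receptors (0.423%), the shorter AAGGTCA that it contains (4.72%), and the NRF1 site (4.6%) were in 0 of the 8 windows. A match describes letters and is not evidence of binding.

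At day 0 no difference between knockdown and control cells passed the test for any of the 9 transcripts. Limma called 0 of the 9, none passed at an unadjusted p under 0.05, and with control and knockdown arrays paired by number the count of calls was also 0. Among all genes 0.467% were called higher on that day, and 4.48% were higher at an unadjusted p under 0.05. The median difference, knockdown minus control, was 0.09 (log2) over the 9 genes and -0.05 over all genes, and the 9 values ran from -0.10 for Idh3a to 0.22 for Fh1. The median was 0.0162 without control replicate 3 and 0.0268 with arrays shifted to 1 median. The sign of 5 of the 9 differences changed under at least 1 other way of processing (Cs, Idh3a, Idh3b, Idh3g and Suclg1).

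Fh1 and Idh3b were the members whose day 0 arrays did not overlap. Fh1, fumarase, which hydrates fumarate to malate, read 11.25, 11.38 and 11.34 in controls and 11.45, 11.51 and 11.65 in knockdown cells. Idh3b, a regulatory subunit of the NAD-dependent isocitrate dehydrogenase, read 12.34, 12.26 and 12.25 against 12.38, 12.42 and 12.40. For both genes all 3 knockdown arrays were above all 3 controls, a pattern that 6.89% of all genes showed. The differences were 0.22 ± 0.14 for Fh1 (adjusted p = 0.52) and 0.11 ± 0.12 for Idh3b (adjusted p = 0.736). The signal of 3′ minus 5′ control probes, a measure of RNA length, separated these arrays for 2 of 3 control genes. For actin it was 3.54 ± 0.22 (SD, n = 3) in controls and 2.98 ± 0.25 in knockdown cells, with an exact two-sided permutation p of 0.1, the smallest that 3 against 3 allows. For Gapdh it was 2.18 ± 0.22 against 1.77 ± 0.16 (exact p = 0.1), and for Tfrc, where the groups overlapped, 3.08 ± 0.10 against 2.73 ± 1.28 (exact p = 0.7). Its part in the result was not tested.

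At day 7 all 9 transcripts were on average higher in knockdown than in control cells, by 0.09 to 0.51 on the log2 scale, and none of these differences passed the test on all genes. The median was 0.34 over the 9 genes against -0.02 over all genes. Limma called 0 of the 9, where 3.01% of all genes were called higher and 3.57% lower. At an unadjusted p under 0.05, 5 of the 9 were higher (Idh3b, Dlst, Suclg1, Sdhb and Fh1), against 11.4% of all genes. The labels do not say what a replicate number marks. The numbers were taken to pair arrays within each day from correlations in these same data, and a block on the number was chosen after seeing them. With this block these same 5 passed (adjusted p from 0.0293 to 0.0459), where 7.54% of all genes were called higher. With replicates 1 and 2 averaged, 0 of the 9 passed, with or without the block. Of all genes 0.137% were then called higher without the block and 0.709% with it.

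**Figure D1:**
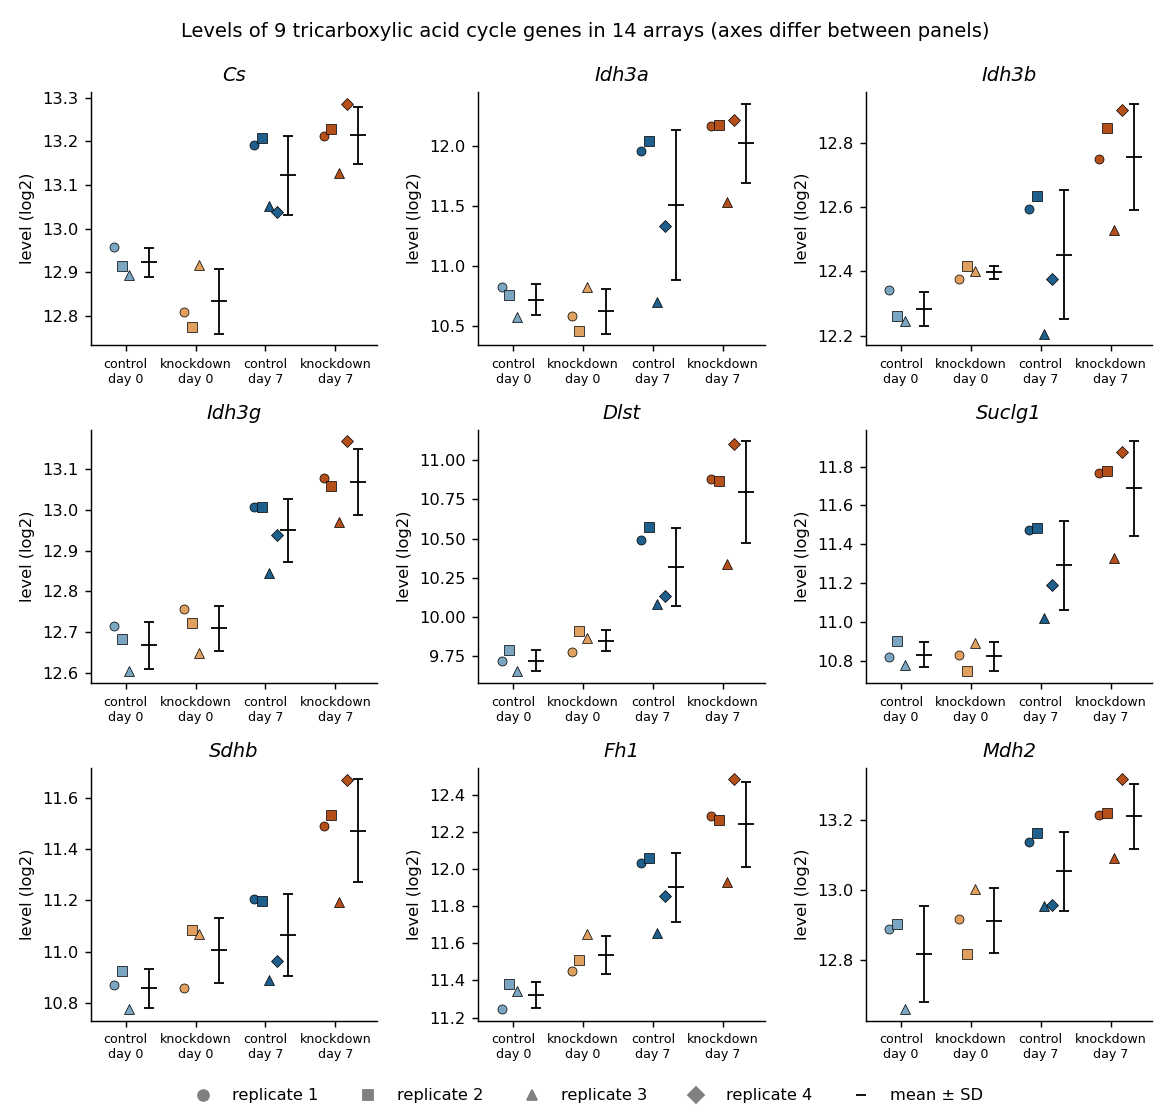
Log2 level of each of the 9 genes (vertical axes, which differ between panels) in every array, by group; symbols give the replicate number and black bars the mean ± SD. At day 7, 3 of the 4 knockdown arrays are above every control for each gene, and knockdown replicate 3 (triangle) is inside the control range.

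Citrate synthase, encoded by Cs, joins acetyl-CoA to oxaloacetate and opens the cycle. Its transcript read 13.19, 13.21, 13.05 and 13.04 in day 7 controls (replicates 1 to 4) and 13.21, 13.23, 13.13 and 13.29 in day 7 knockdown cells. The groups overlapped, and the difference of 0.09 ± 0.07 was the smallest of the 9 (adjusted p = 0.496). At day 0 Cs read 12.96, 12.91 and 12.89 in controls and 12.81, 12.77 and 12.92 in knockdown cells, a difference of -0.09 ± 0.08 (adjusted p = 0.681).

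Idh3a encodes the catalytic subunit of the NAD-dependent isocitrate dehydrogenase, and Idh3b and Idh3g the regulatory ones. Idh3a read 11.96, 12.04, 10.71 and 11.34 in the day 7 controls and 12.17, 12.18, 11.53 and 12.22 in knockdown cells. Control replicate 3 was as low as the day 0 arrays, which ran from 10.46 to 10.83. The difference was the largest of the 9 and the least precise, 0.51 ± 0.26 or 1.43-fold (adjusted p = 0.253, and 0.0669 with the block). Without control replicate 3 the difference for Idh3a was 0.25, and that of Dlst, 0.40, was then larger. Idh3b read 12.59, 12.63, 12.21 and 12.38 against 12.75, 12.84, 12.53 and 12.90. Its difference of 0.30 ± 0.11 had an adjusted p of 0.105, and 0.0459 with the block. Idh3g read 13.01, 13.01, 12.85 and 12.94 against 13.08, 13.06, 12.97 and 13.17, a difference of 0.12 ± 0.07 (adjusted p = 0.355). In all 3 subunits the lowest knockdown array was replicate 3 and the highest replicate 4.

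Dlst encodes the E2 component of the 2-oxoglutarate dehydrogenase complex, which transfers the succinyl group to coenzyme A. It read 10.49, 10.58, 10.08 and 10.13 in the day 7 controls and 10.88, 10.87, 10.34 and 11.10 in knockdown cells. The difference was 0.48 ± 0.15, or 1.39-fold (adjusted p = 0.0818, and 0.0389 with the block). Suclg1, the alpha subunit of succinyl-CoA ligase, which makes succinate with the formation of a nucleoside triphosphate, read 11.48, 11.48, 11.02 and 11.19 against 11.77, 11.78, 11.33 and 11.87. Its difference was 0.40 ± 0.13, or 1.32-fold (adjusted p = 0.0869, and 0.0293 with the block). For both genes knockdown replicate 3 lay among the controls and the other 3 knockdown arrays above them.

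Sdhb encodes the iron-sulphur subunit of succinate dehydrogenase, which is also complex II of the respiratory chain. It read 11.21, 11.20, 10.89 and 10.97 in the day 7 controls and 11.49, 11.53, 11.19 and 11.67 in knockdown cells. This was the member nearest the threshold: the difference was 0.41 ± 0.11, or 1.33-fold, with a 95% confidence interval from 0.16 to 0.65 (adjusted p = 0.051, and 0.0299 with the block). Fh1 read 12.03, 12.06, 11.66 and 11.86 against 12.29, 12.26, 11.93 and 12.48, a difference of 0.34 ± 0.12 or 1.27-fold (adjusted p = 0.113, and 0.0425 with the block). Mdh2, the mitochondrial malate dehydrogenase that regenerates oxaloacetate, read 13.14, 13.16, 12.96 and 12.96 against 13.21, 13.22, 13.09 and 13.32. Its difference of 0.16 ± 0.09 was small (adjusted p = 0.322). The confidence intervals of Cs (-0.06 to 0.25), Idh3a (-0.04 to 1.07), Idh3g (-0.04 to 0.28) and Mdh2 (-0.04 to 0.35) include 0. They hold for these probe sets. Other probe sets of Cs, Idh3a, Idh3g and Mdh2 gave larger differences, described further on.

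**Figure D2:**
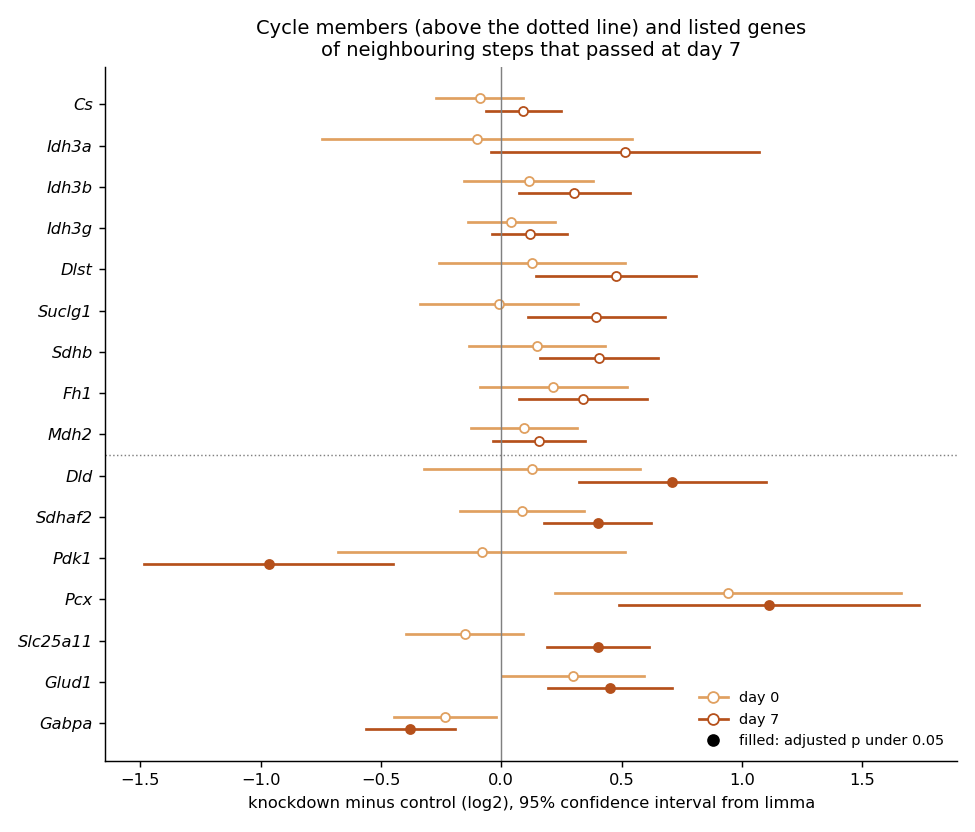
Knockdown minus control (log2, horizontal axis) with limma's 95% confidence interval at day 0 and day 7 for the 9 genes (above the dotted line) and for the 7 genes of neighbouring steps and regulators called at day 7; filled points have an adjusted p under 0.05. All 9 day 7 points of the cycle genes lie above 0 and none is filled.

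The order of the arrays was nearly the same for every member. Within each same-numbered pair at day 7, knockdown was higher for 9 of the 9 genes, with a median difference of 0.21, 0.20, 0.28 and 0.63 in pairs 1 to 4. Each of the 9 was thus higher in 4 of 4 pairs, as were 19.4% of all genes. Each also had at least 3 of the 4 knockdown arrays above every control, as did 17.7% of all genes, and the groups of all 9 overlapped. At day 0 the pairs were less alike: knockdown was higher for 6, 5 and 9 of the 9 genes, with medians of 0.03, 0.04 and 0.21.

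**Figure D3:**
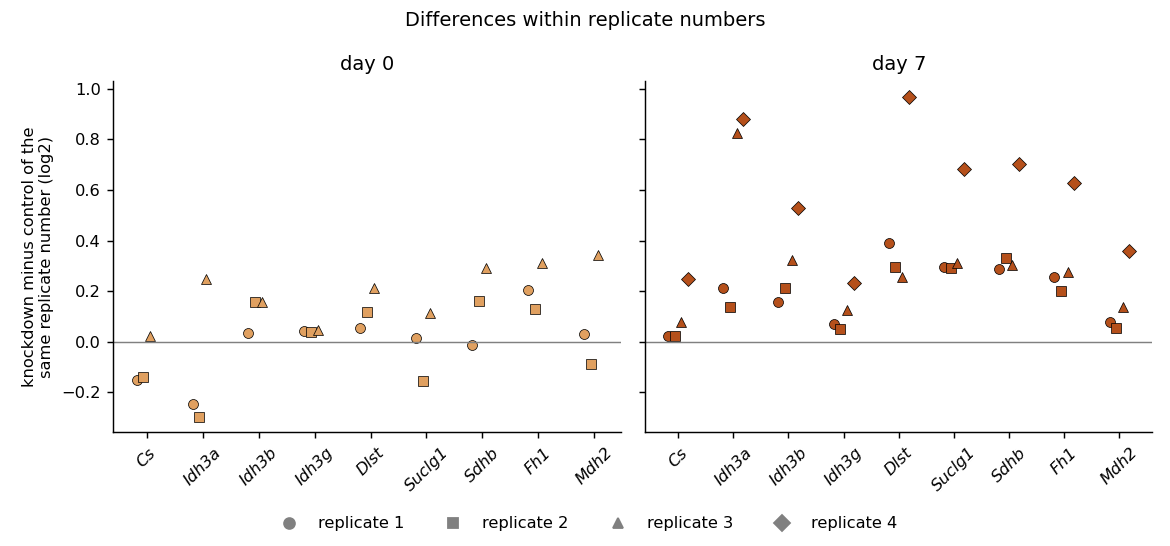
Difference between the knockdown and the control array of the same replicate number (log2, vertical axis) for each gene at day 0 (3 pairs) and day 7 (4 pairs). At day 7 every point is above 0, and pair 4 (diamonds) is the highest for each of the 9 genes.

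Single arrays stood out at day 7. Knockdown replicate 3 was the lowest day 7 knockdown array for 9 of the 9 genes and knockdown replicate 4 the highest for 9. Control replicate 3 was the lowest control for 8, with Cs lowest in replicate 4. The replicate 3 arrays also had the lowest 3′ minus 5′ signal of their groups for actin (2.82 in controls and 2.70 in knockdown cells). The same held for Gapdh (1.24 and 1.35) but not for Tfrc. The part of this signal in the members' values was not tested. Without knockdown replicate 3, 5 of the 9 genes were called by limma (Idh3b, Dlst, Suclg1, Sdhb and Fh1) and the median difference was 0.44. That fit called 7.54% of all genes higher. Without both replicate 3 arrays 4 were called and the median was 0.36, where 5.35% of all genes were called higher. Over the 8 day 7 arrays the deviations from the group means correlated between members at 0.862 to 0.995 (Pearson, median 0.943 over 36 gene pairs), and over the 6 day 0 arrays at -0.774 to 0.954 (median 0.351). These are descriptions, and all genes share the same arrays and their normalization. The same correlations were not computed among other genes.

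From day 0 to day 7, 4 of the 9 members rose in control cells. The mean of each of the 9 was higher at day 7 than at day 0, with a median of 0.28 (log2) against -0.01 over all genes, and 10.1% of all genes were called higher by limma. The 4 were Fh1 (0.58 ± 0.13, adjusted p = 0.00689), Idh3g (0.28 ± 0.08, adjusted p = 0.0194), Dlst (0.60 ± 0.17, adjusted p = 0.0204) and Suclg1 (0.46 ± 0.14, adjusted p = 0.0332). Idh3a had the largest estimate, 0.79 ± 0.28, and was not called (adjusted p = 0.0591). Day 7 was above day 0 without overlap in 6 of the 9, all but Idh3a, Idh3b and Sdhb, and in 14.2% of all genes. The calls were fragile: with replicates 1 and 2 averaged 0 of the 9 passed, without control replicate 1 or 2 of day 0 the count was 2, and without control replicate 3 of day 0 or replicate 1 or 2 of day 7 it was 1, that of Fh1. Of all genes, 4.08% were called higher with the averaging and 7.35% to 7.99% without 1 of these arrays.

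In knockdown cells all 9 rose from day 0 to day 7. Limma called 9 of the 9, where 19.0% of all genes were called higher, and the median rise was 0.47. Idh3a rose the most, by 1.40 ± 0.28 or 2.64-fold (adjusted p = 0.00149). Dlst rose by 0.95 ± 0.17 (adjusted p = 0.000637), Suclg1 by 0.86 ± 0.14 (adjusted p = 0.000378) and Fh1 by 0.70 ± 0.13 (adjusted p = 0.000994). Sdhb, Cs, Idh3g, Idh3b and Mdh2 rose by 0.30 to 0.47. All 4 day 7 arrays were above all 3 day 0 arrays for 9 of the 9 genes and for 21.3% of all genes. With replicates 1 and 2 averaged 6 passed, where 12.5% of all genes were called higher. Idh3b lost its call without any 1 of 6 arrays (day 0 replicates 1, 2 and 3, day 7 replicates 1, 2 and 4), and Mdh2 without the same arrays except day 0 replicate 3, with adjusted p-values up to 0.107.

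The 4 calls in control cells and the 9 in knockdown cells do not show that the rise differed. The difference between the knockdown effects of the 2 days was tested directly, and limma called 0 of the 9 members, where 0.0165% of all genes were called higher. None passed at an unadjusted p under 0.05 either. The 9 estimates were all above 0, with a median of 0.19 against 0.04 over all genes. Suclg1 had the smallest adjusted p, 0.416, at 0.41 ± 0.20, and Idh3a the largest estimate, 0.61 ± 0.39. The median for the members shares its day 7 arrays with the comparison above.

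Other parts of the pathway, from lists of named genes, changed in a few genes at day 7. At day 0 limma called 0 genes of these 4 lists. Over all genes 3.01% were called higher and 3.57% lower at day 7, with a median of -0.02, and with the block 7.54% were called higher and 7.20% lower. Of the rest of the cycle, 2 of 10 measured genes rose and all 10 estimates were above 0, with a median of 0.17. Dld, the E3 component that Dlst's complex shares with pyruvate dehydrogenase, read 9.97, 9.99, 9.33 and 9.88 in the day 7 controls and 10.61, 10.61, 9.99 and 10.79 in knockdown cells, and rose by 0.71 ± 0.18 (adjusted p = 0.0365). Its groups did not overlap, although control replicate 2 and knockdown replicate 3 nearly met. In 17.7% of all genes at least 3 of the 4 knockdown arrays were above every control, and the share with all 4 was not counted. Sdhaf2, the factor that attaches FAD to succinate dehydrogenase, rose by 0.40 ± 0.10 (adjusted p = 0.038).

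Of 12 measured genes for entry of pyruvate, 1 rose and 1 fell, with a median of 0.29. Pcx, pyruvate carboxylase, which refills oxaloacetate, read 9.56, 9.62, 8.72 and 9.27 in the day 7 controls and 10.55, 10.70, 9.50 and 10.87 in knockdown cells, and rose by 1.11 ± 0.29 (adjusted p = 0.039). At day 0 its difference was 0.94 ± 0.33 (adjusted p = 0.188, and 0.0381 with the block). Pdk1, a kinase that inhibits pyruvate dehydrogenase, read 11.39, 11.45, 11.80 and 10.61 against 10.11, 10.36, 10.90 and 10.02, and fell by 0.97 ± 0.24 (adjusted p = 0.0338). Knockdown replicate 3 was the highest knockdown array for Pdk1 and the lowest for Pcx. With the block 5 genes of this list rose and 3 fell.

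Of 16 measured genes of side reactions, 2 rose, 14 estimates were above 0 and the median was 0.12; with the block 4 rose. Slc25a11, which carries 2-oxoglutarate and malate across the inner membrane, rose by 0.40 ± 0.10 (adjusted p = 0.0317). Glud1, glutamate dehydrogenase, which feeds 2-oxoglutarate into the cycle, rose by 0.45 ± 0.12 (adjusted p = 0.0414). Of 14 regulators of mitochondrial genes limma called 0 higher (6 at an unadjusted p under 0.05) and 1 lower, with 11 estimates above 0 and a median of 0.31; with the block 5 rose and 1 fell. The 1 that fell was Gabpa, the DNA-binding subunit of GABP, which read 9.55, 9.36, 9.43 and 9.60 against 9.04, 9.04, 9.08 and 9.26, by 0.38 ± 0.09 (adjusted p = 0.0248). Read from the Gabpa probe set of largest interquartile range instead, the difference was 0.15 (adjusted p = 0.64), so the direction depends on the probe set.

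None of these 7 calls held when each array was left out in turn. Leaving out knockdown replicate 1 or 2 ended 7 of the 7 calls of Dld, Sdhaf2, Pcx, Pdk1, Slc25a11, Glud1 and Gabpa. Leaving out knockdown replicate 4 or control replicate 1, 3 or 4 ended 6 each, control replicate 2 ended 2 (Pdk1 and Glud1), and knockdown replicate 3 ended 0. With replicates 1 and 2 averaged, 7 of the 7 were lost (adjusted p from 0.188 to 0.254), and with the block as well 5 were lost, while Dld and Pdk1 passed. With single arrays left out the adjusted p-values of the lost calls ran from 0.0501 to 0.122, and the direction of each gene stayed the same in these fits.

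Markers of fat cells moved with the members between days and, broadly, among the day 7 arrays. The markers' mean level at day 7 was 9.52, 9.58, 8.34 and 8.31 in controls and 10.1, 10.1, 9.20 and 10.1 in knockdown cells, against 5.69 to 6.65 in day 0 controls and 5.93 to 7.07 in day 0 knockdown cells. Within day 0 the 2 were less alike. Control replicate 3 was the lowest control for both, but knockdown replicate 3 was lowest of its group for the markers and highest for the members' mean. Of 6 measured markers limma called 0 between knockdown and control at day 7, 3 were higher at an unadjusted p under 0.05, and 3 rose with the block (Cidec, Pparg and Slc2a4), with a median of 0.95 and 5 above 0. Lep, leptin, stayed at the low end of the scale in all groups (2.18 to 2.81), and Adipoq, adiponectin, ran from 9.23 to 11.08 in the day 7 controls and from 11.02 to 12.30 in knockdown cells. Markers of preadipocytes and fibroblasts ran the other way: 6 of 6 were below 0, and Pdgfra fell by 0.49 ± 0.13 (adjusted p = 0.0436), with 4 lower with the block. The part of either in the members' values was not tested.

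**Figure D4:**
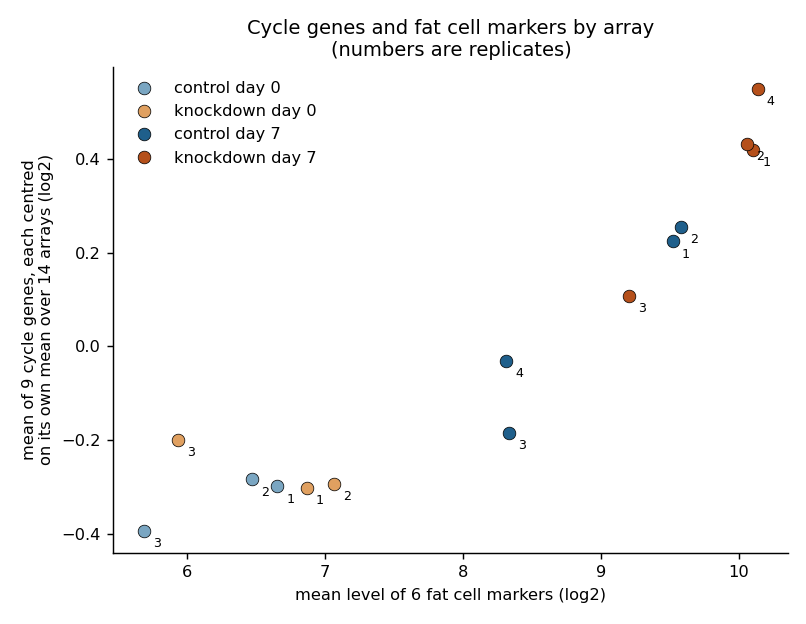
Mean of the 9 genes, each centred on its own mean over 14 arrays (log2, vertical axis), against the mean level of 6 fat cell markers (log2, horizontal axis) for each array; numbers are replicates. In the day 7 arrays the knockdown replicates 1, 2 and 4 are highest on both axes and the control replicates 3 and 4 lowest.

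The centred mean of the 9 genes gave a like picture between days and among the day 7 arrays. It was 0.22, 0.25, -0.18 and -0.03 in the day 7 controls and 0.42, 0.43, 0.11 and 0.55 in knockdown cells, and between -0.39 and -0.20 in all 6 day 0 arrays. Markers of macrophages, endothelium, skeletal muscle and epithelium had mean levels between 2.97 and 4.95 in every array, although among the macrophage markers Csf1r had group means of 8.24 to 9.14 and Cd68 of 6.39 to 6.96. Limma called 0 of these 17 genes between knockdown and control on either day.

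The size of the day 7 difference depended on the probe set for Cs, Idh3a, Idh3g and Mdh2. The 9 genes have 21 probe sets with a single symbol, 12 beside those used above, and in a fit of all 45037 probe sets 11 of these 12 were higher in knockdown cells at day 7. The range was -0.27 to 1.05. The 1 below 0 was an Idh3a probe set (1447701_x_at) with a mean level of only 3.07. One of the 12 passed, a dimmer Cs probe set (1422577_at), where 1.68% of all probe sets were called higher. It read 9.30, 9.46, 8.98 and 9.01 in the day 7 controls and 10.33, 10.39, 9.52 and 10.72 in knockdown cells, and every knockdown array was above every control. The share of all probe sets with that pattern was not counted. The difference of this Cs probe set was 1.05 ± 0.21 (adjusted p = 0.022), against 0.09 and 0.07 for the 2 brighter Cs probe sets. The other Idh3g probe set differed by 0.32 ± 0.09 (adjusted p = 0.0776), against 0.12, and the other Mdh2 probe set by 0.32 ± 0.10 (adjusted p = 0.0999), against 0.16. For Idh3a, at 0.51 in the probe set used, 1422501_s_at differed by 0.72 ± 0.21 (adjusted p = 0.0771, and 0.0134 with the block). Its probe set 1422500_at differed by 0.66 ± 0.23 (adjusted p = 0.133, and 0.017 with the block). At day 0 the dimmer Cs probe set (1422577_at) read 8.15, 8.57 and 8.32 in controls against 8.33, 8.43 and 8.57 in knockdown cells. With the block, 6 of the 21 were called and 4.69% of all probe sets were called higher.

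**Figure D5:**
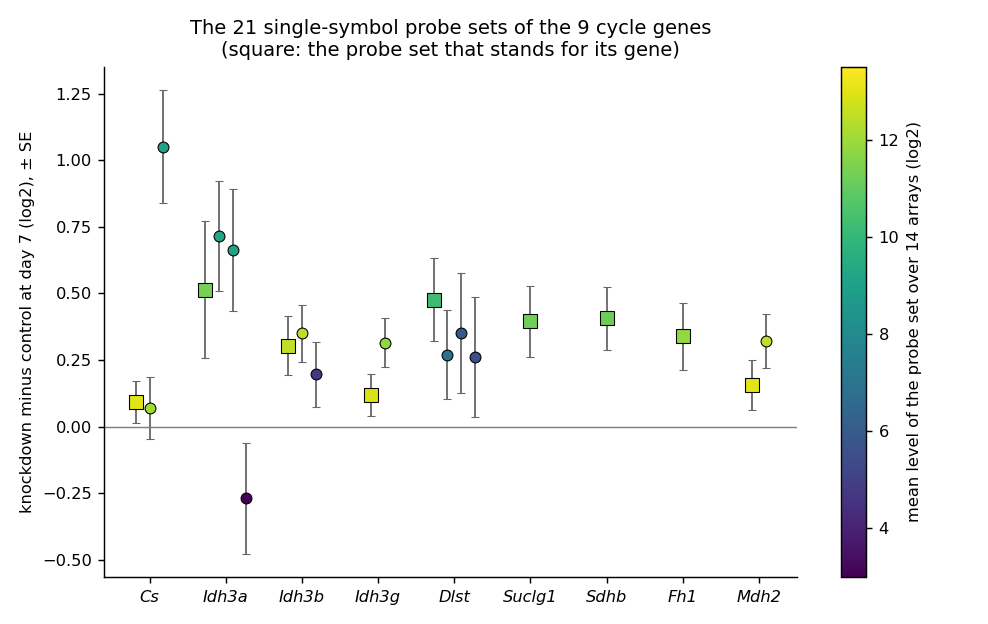
Knockdown minus control at day 7 (log2 ± SE, vertical axis) for the 21 probe sets of the 9 genes; squares are the probe sets used for the genes and the colour gives the mean level over 14 arrays. The dimmer Cs probe set stands at 1.05, far above the brighter ones, and the 3 brighter Idh3a probe sets lie between 0.51 and 0.72.

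The genes whose levels followed the mean of the 9 most closely over 14 arrays were Ndufs1, Rilpl2 and Cyc1 (Pearson r = 0.989 each), and Cluh and Bckdhb (0.987 each). Ndufs1 is a subunit of complex I and Cyc1 of complex III of the respiratory chain. Cluh binds mRNAs of nuclear genes for mitochondrial proteins, and Bckdhb is a subunit of the branched-chain 2-oxoacid dehydrogenase. Over the 8 day 7 arrays the closest were Car5b and Ndufs1 (0.997 each), Lipe (0.996), and Tmem70 and Rbm47 (0.995 each). Car5b is a mitochondrial carbonic anhydrase, Lipe the hormone-sensitive lipase of fat cells and Tmem70 an assembly factor of ATP synthase. Of these 9 genes Bckdhb was called between knockdown and control at day 7 (0.92, adjusted p = 0.0311), and Ndufs1 was not (0.43, adjusted p = 0.107). Of all genes 3.01% were called higher. The genes were picked for following the members' mean over these same arrays, so a like difference is built into the choice.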

How the data were processed

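Expression was measured in 14 single-colour arrays of 45101 probe sets. The authors deposited log2 values made with RMA in the affy package, per the submitters' processing notes; their versions are not known here. RMA normalizes arrays to each other, so a difference is relative to the other genes, and levels of different probe sets are not comparable. Probe sets were named from the platform's annotation: 34945 had 1 symbol, 932 several and 9160 none, and 64 were controls. For each of 18193 genes the single-symbol probe set of highest mean was used. Limma 3.58.1 (R 4.3.3) fitted 4 group means to all genes and arrays, with Benjamini-Hochberg adjustment and no filter on dim genes. The fit was checked on simulated data with independent noise. That check does not cover close replicates or deviations shared between genes.

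Of 87 genes on the lists, 81 were measured, and the other 6 are not reported here. The members and lists were chosen with earlier results of these data known. Named beside the members were listed genes called between knockdown and control (at most 4 a list), the 5 genes of highest correlation with the members' mean, and other probe sets of a member that passed or differed in sign; the markers Cidec, Pparg, Slc2a4, Lep, Adipoq and Pdgfra were named after their values were seen. Replicate numbers come from the labels. Deviations from group means of same-numbered control and knockdown arrays correlated at 0.187 to 0.331 on day 0 and 0.389 to 0.59 on day 7. As every pair was over 0.1, the numbers were taken to pair arrays within a day. Differently numbered arrays were not compared, so these values cannot show that the numbers mark pairs. Across days the correlations were 0.136 to 0.21 for control arrays and 0.0324 to 0.177 for knockdown arrays, and no pairing was assumed. The block within each day, that block with replicates 1 and 2 averaged, and leaving out both day 7 replicate 3 arrays were chosen after seeing the data. Other alternatives were a block across days, quantile normalization, a shift to 1 median, other probe set rules, leaving out the dimmest 40% of genes, a variance trend, fits of the compared groups alone and leaving out each array. The number of arrays limits the precision.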

Additional observations from a re-analysis of the deposited data

Results flagged for a closer look

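The Idh3a level in day 7 knockdown cells had 1 array far from the others. Replicate 3 read 11.53 and replicates 1, 2 and 4 read 12.17, 12.18 and 12.22, so the gap below took 0.924 of the group's whole range. Idh3a is the catalytic subunit of the NAD-dependent isocitrate dehydrogenase, and the same array was the lowest of its group for all 9 cycle genes. The 5% limit for a group of 4 was used, which chance passes in about 1 group of 20. It was applied to each of the 9 genes in both day 7 groups and only this 1 passed, so a single case is not unusual.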

How the results depend on the processing

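At day 7, where 0 of the 9 genes were called between knockdown and control, the count was 5 with the replicate block within each day, 1 with a replicate block across days, 4 with both replicate 3 arrays left out, 1 with the most variable probe set of a gene (by interquartile range), 2 with the dimmest 40% left out, 1 with a variance trend, and 0 to 5 when single arrays were left out. The share of all genes tested that were called higher was 7.54% with the block within each day, 5.14% with the block across days and 5.35% without both replicate 3 arrays. It was 3.05% with the most variable probe set, 8.13% with the dimmest 40% left out and 4.08% with a variance trend. Without single arrays it ran from 0.687% to 7.54%. All 9 estimates stayed above 0 under each of these 20 alternatives, with medians from 0.25 to 0.44. For day 7 against day 0 in control cells, the 4 calls became 0 with replicates 1 and 2 averaged, 7 with the most variable probe set, 7 with a variance trend and 1 to 5 when single arrays were left out. Of all genes these control fits called 4.08% higher with the averaging, 11.2% with the most variable probe set and 11% with a variance trend. Leaving out single arrays gave 7.35% to 10.9%. The median of 0.28 became 0.50 with the most variable probe set and 0.46 with the mean over probe sets, and that of 0.47 in knockdown cells became 0.70 with the most variable probe set. The pairing changed no call of a member at day 0 or in the difference between days.

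Some small day 0 differences changed sign: Cs was 0.10 and Idh3b -0.086 with the most variable probe set, Idh3a 0.079 with the mean over probe sets, and Idh3g -0.026 with arrays shifted to 1 median. Suclg1 was 0.021 with replicates 1 and 2 averaged (with or without the block), 0.0049 with quantile normalization, and -0.0435 to 0.029 when single arrays were left out, above 0 without control replicate 2 or knockdown replicate 2. Gabpa at day 7 was 0.15 with the most variable probe set. The causes were not tested. Over all genes the day 7 calls numbered 1197, and 2680 with the block within each day, 64 with replicates 1 and 2 averaged and 369 to 2885 when single arrays were left out; at day 0 they numbered 328, 844, 24 and 101 to 631.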
